A study of Mus musculus with 8 samples.

Results

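Expression of 10 genes of the brain chondroitin sulfate proteoglycan (CSPG) matrix was examined in S89G-DMP1 and wild type (WT) neural cells. The members were chosen by symbol and mapped to Ensembl mouse gene identifiers. They are the 4 lecticans Ncan, Bcan, Vcan and Acan, the membrane proteoglycans Ptprz1, Cspg4 and Cspg5, the link protein Hapln1 and the tenascins Tnc and Tnr. All 10 were found among the 47729 genes of the neural stem cell (NSC) count table and the 40562 genes of the astrocyte (AST) count table. DMP1 is a secreted matrix protein, and the S89G knock-in mutation replaces the serine that carries its chondroitin sulfate chain with glycine. Mutant mice were homozygous and carried the allele in every cell. The series held 3 S89G-DMP1 and 3 WT libraries of NSCs, grown from the sub-ventricular zone as neurospheres with N2 supplements, and 1 library per genotype of cortical astrocytes grown in 10% serum. All cells came from mice on a C57BL/6 background with a labelled age of 10 weeks, although the methods describe the cortex donors as 3 months old. Neither the labels nor the methods say whether the 3 NSC libraries of a genotype came from separate animals or cultures. The p-values therefore measure only the spread between these libraries, which may be technical. The methods state that astrocytes were taken from mice of both sexes, and the sources do not say how many mice were pooled.

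Chondroitin sulfate proteoglycans are core proteins that carry long sulfated sugar chains. In brain, the lecticans bind hyaluronan at one end and tenascins at the other, and link proteins lock the hyaluronan bond in place. The resulting lattice surrounds neural progenitors in their niche and, later in life, the perineuronal nets of some neurons. Membrane proteoglycans of glia and their precursors hold sugar chains of the same kind at the cell surface, and the sugar chains can restrain growing axons and migrating precursors.

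The depth was 2354615 to 2588130 counted reads for the NSC libraries and 14008670 (WT) and 13016924 (S89G-DMP1) for the astrocyte libraries. Dmp1, the mutated gene, had 18, 21 and 16 counts in the WT NSC libraries and 6, 3 and 5 in the S89G-DMP1 NSC libraries, a log2 fold change of -1.90 (SE 0.38, edgeR adjusted p = 0.00013). In astrocytes it went the other way, with 2 counts in WT and 119 in S89G-DMP1. Most of the 10 astrocyte markers had few reads in the WT astrocyte library, with 90 counts of Gfap, 8 of Aqp4 and 8 of Slc1a3. The S89G-DMP1 astrocyte library had 901, 4051 and 3877 counts of these 3. Gja1 had 1165 counts in WT and 1913 in S89G-DMP1, and S100b had 64 in WT and 30 in S89G-DMP1. The WT library held 27329 counts of the fibroblast collagen Col1a1. Summed over the 10 markers, expression was 117.7 CPM (counts relative to the scaled library total) in the WT, of which Gja1 made 92.1 CPM, and 1211 CPM in the S89G-DMP1 astrocyte library, and 6 fibroblast markers gave 5029 and 2053 CPM. In NSCs the markers of endothelial cells and microglia were at or near 0, with at most 3.79 and 0.856 CPM summed over 5 genes each. RNA of whole cultures cannot tell fewer cells of a type from less RNA per cell, so all values below describe the cultures as sequenced.

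The members sit on different chromosomes for the most part, and each lectican gene has a link protein gene as its nearest coding neighbour on one side. On GRCm38, Ncan (ENSMUSG00000002341) lies at chr8:70093085-70120873, with 2222 bases between it and Hapln4. Bcan (ENSMUSG00000004892) lies at chr3:87987531-88000230, with 21519 bases to Hapln2. Vcan (ENSMUSG00000021614) lies at chr13:89655312-89742509, with 43659 bases to Hapln1 (ENSMUSG00000021613, chr13:89539796-89611652). Acan (ENSMUSG00000030607) lies at chr7:79053483-79115099, directly beside Hapln3. Of the other members, Ptprz1 (ENSMUSG00000068748) is at chr6:22875502-23052916, Cspg4 (ENSMUSG00000032911) at chr9:56865033-56899870 and Cspg5 (ENSMUSG00000032482) at chr9:110243783-110262576. Tnc (ENSMUSG00000028364) is at chr4:63959785-64047015 and Tnr (ENSMUSG00000015829) at chr1:159523769-159931729. Genes whose exons overlap a member on the other strand were found for Tnc (8030451A03Rik, 45 to 93 counts per NSC library) and Tnr (Gm38039, 0 counts). The use of strand in counting is not given in the sources used here, so reads of Tnc and of 8030451A03Rik cannot be told apart where they overlap.

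Promoter sequences were read from RefSeq (GRCm38.p6) for 9 of the 10 members, and Cspg5 had no entry. They are shown for the 5 members that changed in NSCs (results below) and whose 250 bases before the start site lie wholly outside the annotated gene. Tnc, Vcan and Tnr were lower and Ptprz1 and Bcan higher in S89G-DMP1 NSCs. Capitals mark 5 motifs searched on either strand, which are the TATA box written as TATAAA, the CCAAT box, the GC box written as GGGCGG, the site of AP-1 factors written as TGANTCA and that of TEAD factors written as GGAATG, and no matches overlap in these 5 windows. Each sequence is given 5′ to 3′ on the gene's own strand, which is minus for Tnc (chr4:64047016-64047265), Vcan (chr13:89742513-89742762) and Bcan (chr3:88000357-88000606) and plus for Tnr (chr1:159523519-159523768) and Ptprz1 (chr6:22875252-22875501).
Tnc: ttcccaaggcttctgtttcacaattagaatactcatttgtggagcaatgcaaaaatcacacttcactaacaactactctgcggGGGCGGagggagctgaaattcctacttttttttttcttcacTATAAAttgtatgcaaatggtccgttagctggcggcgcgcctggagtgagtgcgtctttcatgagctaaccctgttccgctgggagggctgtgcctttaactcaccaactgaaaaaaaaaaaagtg
Vcan: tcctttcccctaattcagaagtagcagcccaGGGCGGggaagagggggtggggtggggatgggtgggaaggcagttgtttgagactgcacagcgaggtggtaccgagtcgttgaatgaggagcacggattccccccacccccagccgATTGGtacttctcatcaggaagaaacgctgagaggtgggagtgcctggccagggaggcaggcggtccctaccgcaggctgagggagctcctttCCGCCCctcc
Tnr: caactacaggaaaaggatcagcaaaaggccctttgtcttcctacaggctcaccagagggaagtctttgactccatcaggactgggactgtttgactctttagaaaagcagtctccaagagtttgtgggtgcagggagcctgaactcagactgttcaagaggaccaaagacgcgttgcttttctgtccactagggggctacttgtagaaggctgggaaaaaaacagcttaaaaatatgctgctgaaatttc
Ptprz1: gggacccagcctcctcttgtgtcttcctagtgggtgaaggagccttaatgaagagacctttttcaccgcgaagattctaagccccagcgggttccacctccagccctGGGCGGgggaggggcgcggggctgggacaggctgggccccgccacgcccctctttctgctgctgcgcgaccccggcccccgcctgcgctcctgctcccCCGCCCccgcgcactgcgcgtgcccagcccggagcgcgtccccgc
Bcan: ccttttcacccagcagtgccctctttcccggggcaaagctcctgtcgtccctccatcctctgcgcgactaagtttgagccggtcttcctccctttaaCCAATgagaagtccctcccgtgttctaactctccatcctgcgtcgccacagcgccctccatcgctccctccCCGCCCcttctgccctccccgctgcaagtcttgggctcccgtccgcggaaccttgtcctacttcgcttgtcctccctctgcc

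A GC box stood in at least 1 window of 7 of the 9 members, where 32.7% of 32851 RefSeq promoters of this length held it. The 2 members without it were Tnr and Hapln1. TATAAA was found for Ncan and Tnc and in 12.4% of all promoters, and CCAAT for Bcan, Vcan and Acan and in 33.8% of all. TGANTCA was found in 0 members and 6.75% of promoters, and GGAATG in Acan and 12.6% of promoters. Of the windows shown, those of Bcan and Ptprz1 held 62.0% and 71.6% G and C, that of Vcan 62.4%, and those of Tnc and Tnr 44.8% and 46.8%, where the median of all promoters was 52.4%. A match is a description of letters only.

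In NSCs, 7 of the 8 members with enough reads to be tested changed with genotype, in both directions. Tnc, Cspg4, Tnr, Vcan and Ncan fell in S89G-DMP1 NSCs, Ptprz1 and Bcan rose, and Cspg5 did not pass the test. Over all 11194 genes tested, 15.8% passed (7.08% higher and 8.76% lower) at a Benjamini-Hochberg adjusted p of 0.05 in edgeR's quasi-likelihood test. The median log2 fold change was -0.26 over the 8 tested members and 0.00 over all genes. The groups did not overlap for the 7 changed members, as for 30.7% of all tested genes. With 3 libraries against 3, an exact 2-sided permutation test cannot give a p under 0.1, and each of these 7 members gave that smallest p.

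**Figure D1:**
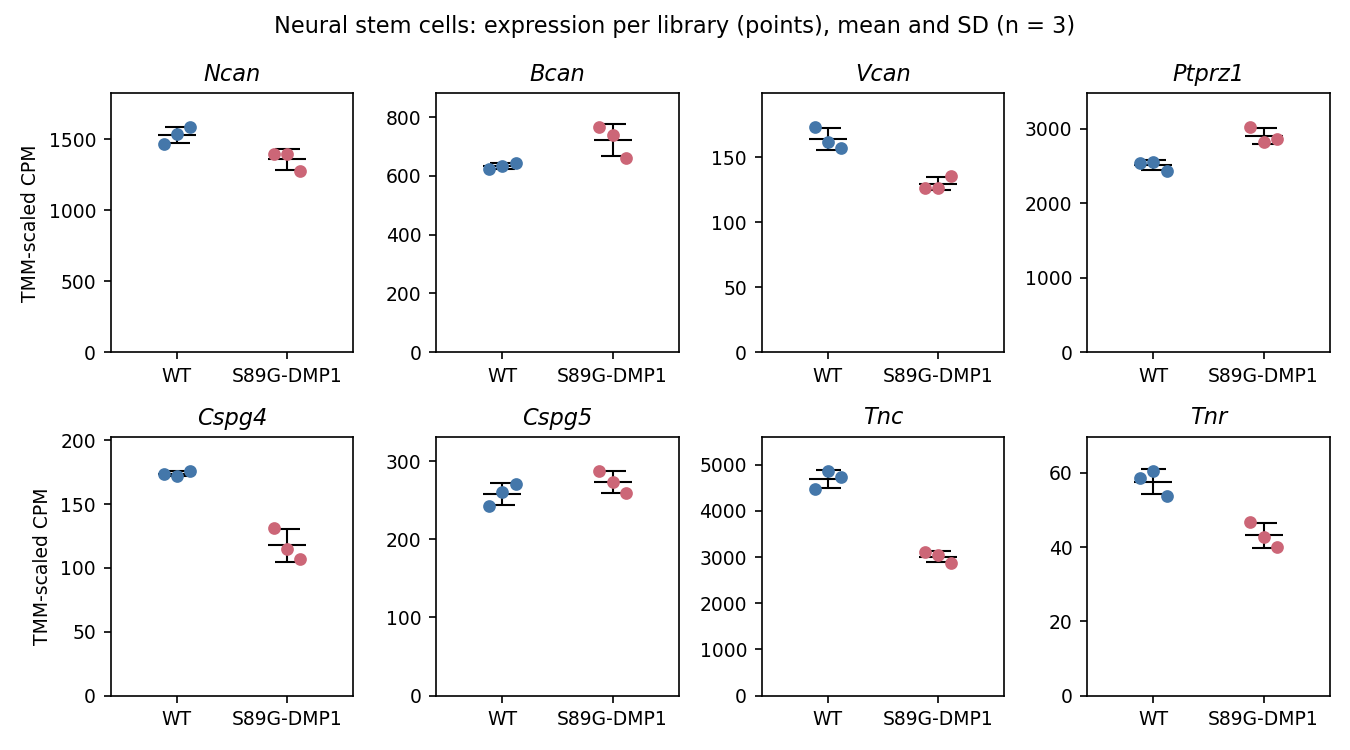
Expression of the 8 tested members in NSCs, in CPM scaled by TMM factors (vertical axes start at 0). Each point is 1 library of WT (blue) or S89G-DMP1 (red) cells, and the horizontal line and bars are the mean and SD of 3 libraries. Tnc libraries lie between 4475 and 4867 CPM in WT against between 2872 and 3107 CPM in S89G-DMP1, whereas the Cspg5 groups overlap.

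Among the lecticans, Ncan and Vcan fell and Bcan rose in S89G-DMP1 NSCs. Ncan (neurocan), a secreted lectican of developing brain, had 1470.3, 1540.3 and 1585 CPM in the 3 WT libraries and 1399.6, 1399 and 1275 CPM in the 3 S89G-DMP1 libraries. All mutant libraries lay below all WT libraries, with the third farther down than the other two. Its log2 fold change was -0.17 (SE 0.05, 95% interval -0.27 to -0.08, edgeR adjusted p = 0.0057), so that it decreased by 11.4%. The call was lost without the third S89G-DMP1 library (-0.13, edgeR adjusted p = 0.0605) or without the third WT library (-0.15, edgeR adjusted p = 0.0512).

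Bcan (brevican), a lectican typical of glia and of perineuronal nets, had 625, 635 and 644 CPM in WT against 765, 738 and 661 CPM in S89G-DMP1 NSCs. The WT libraries were close together, and the lowest mutant library lay just above them. The log2 fold change of Bcan was 0.18 (SE 0.05, 95% interval 0.08 to 0.29, edgeR adjusted p = 0.0079), an increase of 13.7%. The call was lost without the first (0.14, edgeR adjusted p = 0.0999) or the second S89G-DMP1 library (0.17, edgeR adjusted p = 0.0677).

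Vcan (versican), the longest lectican and one that non-neural cells also make, had 173, 162 and 157 CPM in WT against 127, 127 and 136 CPM in S89G-DMP1 NSCs. The groups were apart by more than the spread within either. Its log2 fold change was -0.34 (SE 0.07, 95% interval -0.48 to -0.19, edgeR adjusted p = 0.0003). Acan (aggrecan), the cartilage and perineuronal net lectican, had 0 to 2 counts in WT and 2 to 3 in S89G-DMP1 NSC libraries, at or under the 3 counts taken here as the floor of detection, and was not tested.

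The makeup of the lecticans can be read within a library, without any scaling between libraries. Per kilobase of annotated exon, Ncan made up 55.2%, 56.1% and 56.5% of the summed lectican level in WT and 49.7%, 50.5% and 50.7% in S89G-DMP1 NSCs. Bcan made up 41.5%, 40.9% and 40.7% in WT and 48.1%, 47.2% and 46.6% in S89G-DMP1. The share of Ncan thus fell by 5.66 percentage points (50.3% ± 0.57 against 56.0% ± 0.669, SD, n = 3) and that of Bcan was 6.22 points higher (47.3% ± 0.756 against 41.0% ± 0.448, SD, n = 3) in mutant cells. For Vcan the share was 2.99% ± 0.23 in WT and 2.40% ± 0.246 in S89G-DMP1 (SD, n = 3). The groups did not overlap for any of these shares, and the exact 2-sided permutation test gave p = 0.1 for each, before and after adjustment over the 4 lecticans, the smallest p that 3 against 3 libraries allow.

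**Figure D2:**
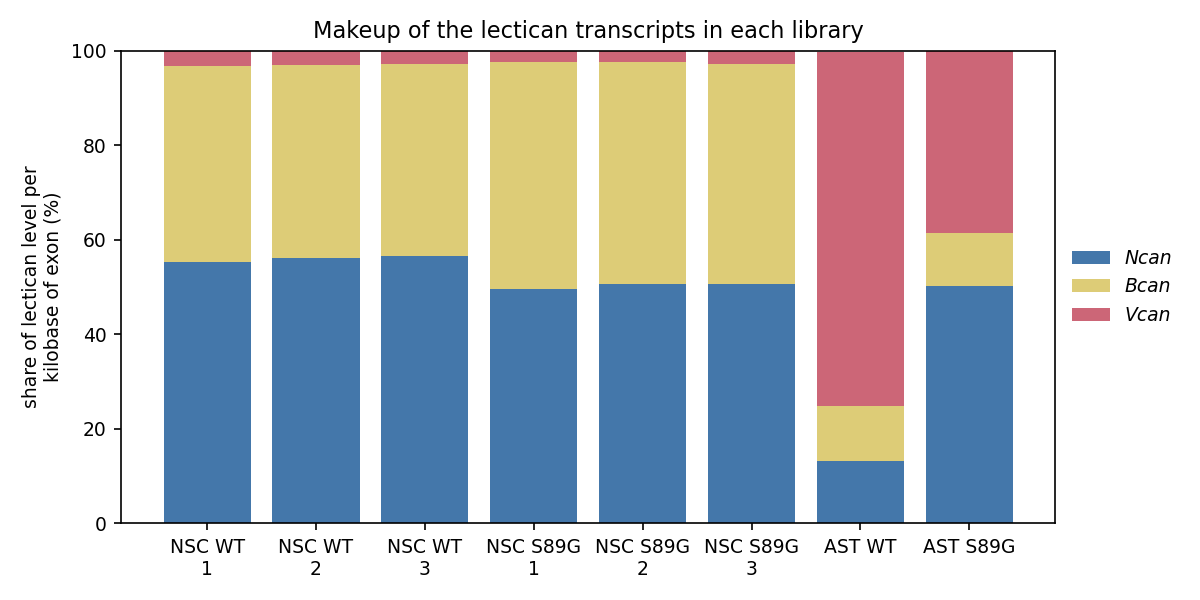
Share of Ncan (blue), Bcan (yellow) and Vcan (red) in the lectican level of each library, in percent of the summed CPM per kilobase of exon (stacked bars from 0 to 100%, 1 bar per library). Acan is at most 0.174% and is not visible. Bcan takes 40.7 to 41.5% in WT and 46.6 to 48.1% in S89G-DMP1 NSCs, and Vcan takes 75.1% in the WT astrocyte library.

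The log2 ratio of Bcan reads to Ncan reads was -1.24, -1.28 and -1.30 in WT and -0.87, -0.92 and -0.95 in S89G-DMP1 NSCs. The difference of 0.36 exceeded the spread within either genotype (SD 0.033 and 0.0391, n = 3), again with p = 0.1 in the exact 2-sided permutation test. The sum of the lecticans did not separate the genotypes, with 2268, 2338 and 2386 CPM in WT against 2293, 2265 and 2073 CPM in S89G-DMP1 (p = 0.2, exact 2-sided permutation test, n = 3).

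Of the membrane proteoglycans, Ptprz1 rose and Cspg4 fell in S89G-DMP1 NSCs. Ptprz1, a receptor tyrosine phosphatase of progenitors and glia whose splice forms include the secreted CSPG phosphacan, had 2543, 2557 and 2435 CPM in WT and 3022, 2825 and 2861 CPM in mutant libraries. No mutant library reached down to the WT range. Its log2 fold change was 0.21 (SE 0.04, 95% interval 0.12 to 0.30, edgeR adjusted p = 0.00032). The counts are per gene and do not separate phosphacan from the membrane form.

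Cspg4 (NG2), the membrane proteoglycan of oligodendrocyte precursors and pericytes, had 173, 172 and 176 CPM in WT against 131, 115 and 107 CPM in S89G-DMP1 NSCs. The WT libraries were nearly equal, and every mutant library lay well below them. The log2 fold change of Cspg4 was -0.56 (SE 0.07, 95% interval -0.71 to -0.42, edgeR adjusted p = 1.1e-08), so that it decreased by 32.4%. Of 7 markers of oligodendrocyte precursors, 5 were tested, 2 fell (Pdgfra, -0.84, and Lhfpl3, -0.51) and 0 rose, with sums of 3702 to 3952 CPM in the WT and 3779 to 3958 CPM in the mutant libraries. The lineage factors Olig1 and Olig2 had log2 fold changes of 0.04 and 0.08 and did not pass. Of 8 mural cell markers, Abcc9 and Anpep were at 0 in every NSC library, and 1, Notch3, was tested and did not pass. The sums were 37.1 to 56.3 CPM in WT against 35.7 to 52.2 CPM in S89G-DMP1. Nearly all of this was Notch3, with means of 44.6 and 41.2 CPM. The part of these cell types in the level of Cspg4 was not tested.

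Cspg5 (neuroglycan C), a membrane proteoglycan with an EGF-like domain, had 243, 260 and 270 CPM in WT against 288, 273 and 260 CPM in S89G-DMP1 NSCs. The groups overlapped. Its log2 fold change of 0.08 (SE 0.06, edgeR adjusted p = 0.4) had a 95% interval from -0.04 to 0.21, and a rise of the size of that of Bcan lay within it.

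The tenascins, glycoproteins that bind the lecticans, both fell, and Tnc showed the largest edgeR fold change of the 8 tested members in NSCs. On the authors' TPM values, limma gave Cspg4 a larger change than Tnc (-0.80 against -0.65 with log2(TPM + 1)). With log2(TPM + 0.1), Cspg4 (-0.82) and Tnr (-0.69) both exceeded Tnc (-0.65). Tnc (tenascin-C), a matrix protein of the stem cell niche, had 4475, 4867 and 4735 CPM in WT against 3107, 3044 and 2872 CPM in S89G-DMP1 NSCs. Its groups were far apart relative to their spread (SD 199.6 CPM in WT and 121.4 CPM in mutant cells, n = 3). The log2 fold change of Tnc was -0.64 (SE 0.04, 95% interval -0.73 to -0.55, edgeR adjusted p = 7.8e-19), so that it decreased by 35.9%. The antisense gene 8030451A03Rik, which overlaps its exons, had 93, 70 and 82 counts in WT and 76, 53 and 45 in S89G-DMP1 NSC libraries, against 7113 to 12528 counts of Tnc.

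Tnr (tenascin-R), known from oligodendrocytes and perineuronal nets, had 58.6, 60.6 and 53.9 CPM in WT against 46.8, 42.8 and 40.1 CPM in S89G-DMP1 NSCs. The lowest WT library lay above the highest mutant library. Its log2 fold change was -0.42 (SE 0.11, 95% interval -0.64 to -0.20, edgeR adjusted p = 0.0045). DESeq2 gave Tnr an adjusted p of 0.077. Hapln1, the link protein of cartilage and perineuronal nets, had 0 counts in all 6 NSC libraries, where 3 counts, the upper limit that a count of 0 allows, are 1.16 to 1.27 CPM per library. The other link protein genes were low too, with 0 to 1 counts of Hapln2, 2 to 10 of Hapln3 and 19 to 26 of Hapln4.

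**Figure D3:**
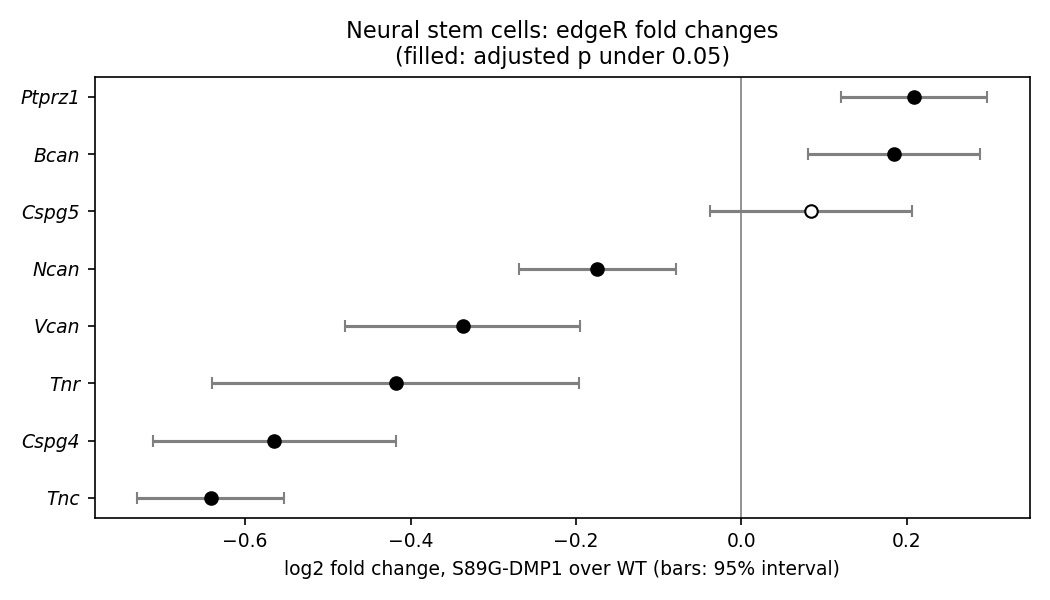
Log2 fold change of S89G-DMP1 over WT NSCs for the 8 tested members (horizontal axis), from edgeR with 3 libraries per genotype. Bars are 95% intervals, filled points have an adjusted p under 0.05, and the grey line marks no change. The points run from -0.64 for Tnc to 0.21 for Ptprz1, and only the bar of Cspg5 crosses the line.

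The order of the members was read from CPM per kilobase of annotated exon, a scale on which levels of different genes can be set side by side. In WT NSCs Tnc was highest at 604 ± 25.7, followed by Ncan (213 ± 8.04), Ptprz1 (176 ± 4.7), Bcan (156 ± 2.37), Cspg5 (25.6 ± 1.36), Cspg4 (14.6 ± 0.175), Vcan (11.3 ± 0.575) and Tnr (4.48 ± 0.266, SD, n = 3). The ranges of neighbours in that order did not overlap among these 8. In S89G-DMP1 NSCs Tnc was again highest (387 ± 15.6), and Ptprz1 (204 ± 7.37) stood above Ncan (189 ± 9.96) and Bcan (178 ± 13.2, SD, n = 3). The ranges of Ncan and Bcan overlapped there, as did those of Cspg4 (9.86 ± 1.06) and Vcan (8.97 ± 0.353, SD, n = 3). Tnc was at percentile 99.8 to 99.9 of the genes with a count in WT NSC libraries, and Ncan, Ptprz1 and Bcan were above percentile 99 in every NSC library. The order depends on the length assigned to each gene, and 15 of 40 ranks differed when the authors' TPM and FPKM values were used.

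Enzymes that cut CSPGs changed in both directions in NSCs. Of 13 genes of this group, which holds ADAMTS and matrix metalloproteases, hyaluronidases and the inhibitor Timp3, 8 were tested, 1 rose and 4 fell, with a median log2 fold change of -0.27. Over all tested genes 7.08% rose and 8.76% fell. Adamts4, an aggrecanase that cuts Bcan, had 46.4, 36.9 and 45.9 CPM in WT against 93.9, 100.1 and 84.6 CPM in S89G-DMP1 NSCs. Every mutant library lay far above the WT range, with a log2 fold change of 1.11 (SE 0.1, edgeR adjusted p = 1.61e-13). Adamts5, the related aggrecanase, had 50.1, 44.3 and 36.3 CPM in WT against 13.9, 13.3 and 15.6 CPM in S89G-DMP1, with a log2 fold change of -1.60 (SE 0.16, edgeR adjusted p = 1.07e-12). These 2 enzymes with overlapping substrates thus moved in opposite directions.

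Adamts1 fell, with 120 to 129 CPM in the WT and 71.8 to 74.6 CPM in the mutant libraries (log2 fold change -0.77, SE 0.08, edgeR adjusted p = 4.21e-11). Adamts8 (-0.85) and Adamts9 (-0.27) fell as well, with DESeq2 adjusted p of 0.0574 and 0.14, and Adamts9 lost its edgeR call in 3 of the 6 fits that left out 1 library. Mmp14 (-0.14), Hyal2 (-0.27) and Timp3 (0.06) did not pass. Adamts15, Adamts20, Mmp2, Mmp9 and Hyal1 had too few reads to be tested.

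**Figure D4:**
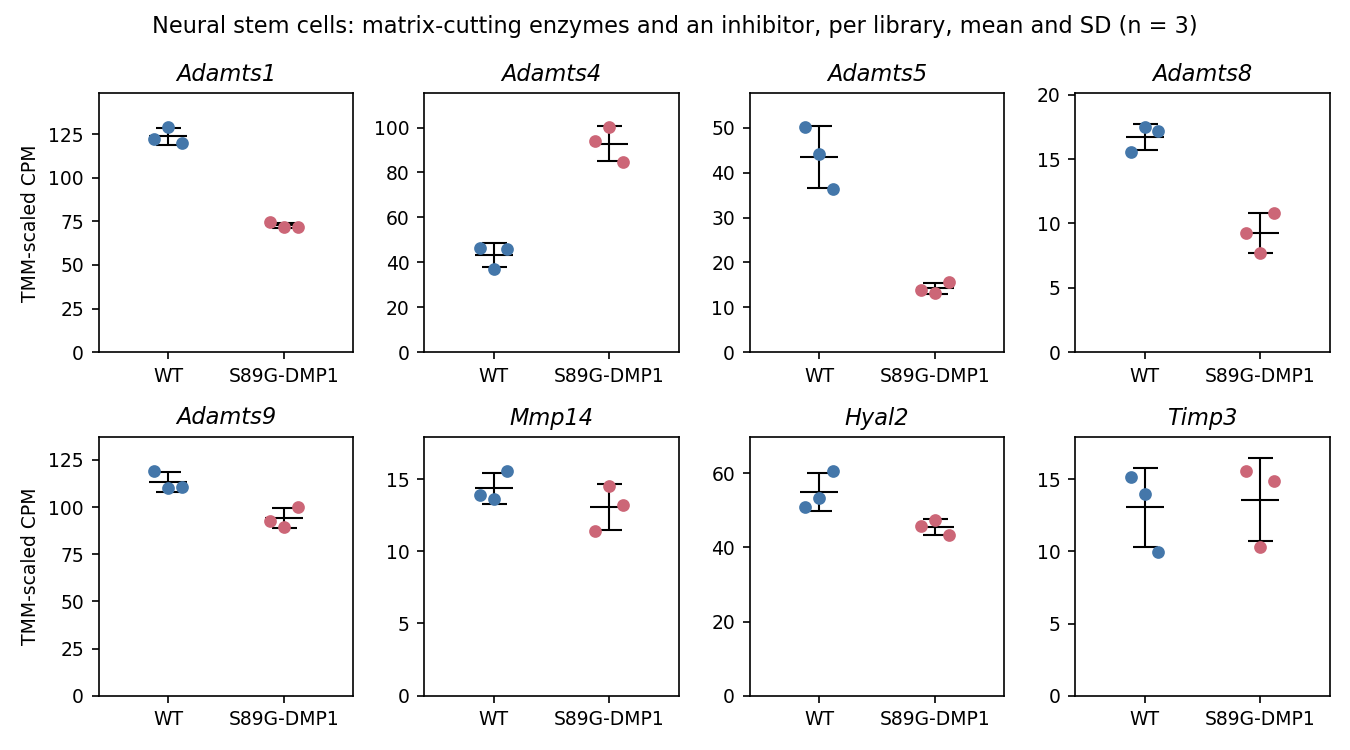
Expression of the 8 tested genes of the group of CSPG-cutting enzymes and inhibitor in NSCs, in TMM-scaled CPM (vertical axes start at 0). Points are libraries of WT (blue) and S89G-DMP1 (red) cells, lines and bars the mean and SD of 3. Adamts4 runs from 36.9 to 46.4 CPM in WT against from 84.6 to 100.1 CPM in S89G-DMP1, and Adamts5 from 36.3 to 50.1 and from 13.3 to 15.6 CPM.

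Receptors of CSPGs and tenascins gave 6 lower genes and 1 higher gene in S89G-DMP1 NSCs. Of 15 such genes 11 were tested, with a median log2 fold change of -0.14, where 8.76% of all tested genes fell and 7.08% rose. The integrin subunit Itga9, part of a tenascin-C receptor, fell most (-1.66, SE 0.26, edgeR adjusted p = 1.3e-06), from a mean of 14.9 CPM to 4.71 CPM. Rtn4rl1, a Nogo receptor family member that binds CSPGs, fell by 1.09 on the log2 scale (SE 0.21, edgeR adjusted p = 7.44e-05). Ptprs, the receptor phosphatase that binds chondroitin sulfate chains, had 1028, 1076 and 1119 CPM in WT and 901, 876 and 795 CPM in mutant NSCs (-0.33, SE 0.05, edgeR adjusted p = 7.15e-07). Ncam1, a cell adhesion molecule bound by Ncan and Ptprz1, fell by 0.34 on the log2 scale. Ptprf (-0.18) and Itgb1 (-0.14) passed more narrowly, with DESeq2 adjusted p of 0.203 and 0.132, and lost their edgeR call in 4 and 5 of the 6 fits that left out 1 library. Egfr, a receptor that tenascin-C can engage, rose (0.18, edgeR adjusted p = 0.0082). Of 5 ligands of Ptprz1, 3 were tested and 0 passed at edgeR's adjusted p of 0.05, and the nearest was Ptn, pleiotrophin (0.13, edgeR adjusted p = 0.0527).

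Genes that build the chondroitin sulfate chains gave 4 lower and 0 higher among 21 tested of 22, with a median log2 fold change of -0.21. The 4 were Ust (-0.65, edgeR adjusted p = 9.95e-05), a uronyl sulfotransferase, Csgalnact1 (-0.34), which starts the chain proper, Xylt1 (-0.26, edgeR adjusted p = 2e-04), which adds the first sugar to the core protein, and Chst7 (-0.21), a sulfotransferase. DESeq2 did not call Csgalnact1 and Chst7 (adjusted p of 0.229 and 0.21), and each lost its edgeR call in 4 of the 6 fits that left out 1 library. Of the group of hyaluronan and link partners 4 of 10 genes were tested and 1 passed, the hyaluronan receptor Hmmr (0.26), which also serves the mitotic spindle. DESeq2 did not call Hmmr (adjusted p = 0.103), and it lost its edgeR call in 2 of the 6 fits that left out 1 library. Of 15 other core proteins, 8 were tested and 3 fell, and these included Cspg4 itself, the synaptic vesicle protein Sv2a (-0.35) and App (-0.22), with 0 higher. DESeq2 did not call Sv2a (adjusted p = 0.181), which lost its edgeR call in 4 of the 6 fits that left out 1 library.

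Markers of astrocytes and progenitors moved in NSCs alongside the members. Of 10 astrocyte markers 7 were tested and 4 rose, and these were Aldh1l1 (1.03), Gja1 (0.91), Mlc1 (0.71) and Slc1a3 (0.20), with sums of 1641 to 1695 CPM in WT against 2270 to 2322 CPM in S89G-DMP1 NSCs. Gfap and Aqp4 had too few reads to be tested, and Gjb6 was at 0 in every NSC library. Among the progenitor markers Fabp7 (0.56) and Egfr (0.18) rose. Their part in the changes of Bcan, Ptprz1 or any other member was not tested.

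In astrocyte cultures, 7 of the 9 members with at least 10 counts in either library stood at least 2-fold higher in the S89G-DMP1 library and 0 stood that much lower, where 17.3% of all 15680 genes stood at least 2-fold higher and 12.8% that much lower. Of these 7, Hapln1 (0 and 49 counts) passed the filter only through the S89G-DMP1 library. With at least 10 counts in both libraries, 6 members and 1669 of 13594 genes stood at least 2-fold higher. With log2(FPKM + 1) it was 6 members and 2274 of 15680 genes. There was 1 library per genotype, so these values have no replicate check and no test, and the intervals below cover counting error only. Ratios were computed from TMM-scaled CPM. Scaling by library size alone moved the median log2 ratio of all genes from 0.01 to 0.30, and the changes below are relative to that median. The median of the 9 members was 2.92.

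Of the lecticans, Ncan, Bcan and Vcan were higher in the S89G-DMP1 library. Ncan had 73 counts in the WT library (5.77 CPM, 95% Poisson interval 4.52 to 7.26) and 5633 in the S89G-DMP1 library (392 CPM, 382 to 402), a log2 ratio of 6.05. Bcan had 36 and 711 counts, or 2.85 and 49.4 CPM (log2 ratio 4.05). Vcan, the most abundant lectican of the WT culture, had 835 and 8695 counts, or 66.0 and 605 CPM (3.19). Acan had 1 count in each library, so no ratio was given. The makeup of the lecticans therefore differed between the cultures, with Vcan at 75.1% of the lectican level per kilobase in WT and 38.6% in S89G-DMP1, and Ncan at 13.2% and 50.2%. As shares of the reads, an alternative added after the data had been seen, Vcan stood at 88.4% in WT and 57.8% in S89G-DMP1 and Ncan at 7.72% and 37.5%, so which lectican led in the S89G-DMP1 library depended on the length used.

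The membrane proteoglycans did not move as one. Ptprz1 went from 301 to 1541 counts (23.8 and 107 CPM, log2 ratio 2.16), and Cspg5 from 40 to 245 counts (3.16 and 17.0 CPM, 2.38). Cspg4, with 542 and 555 counts (42.8 and 38.6 CPM), had a log2 ratio of -0.15 with a counting interval of -0.32 to 0.02, and 0.14 when scaled by library size alone. Its direction therefore depended on the scaling.

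Tnc was the most abundant member in both cultures, with 25780 and 41372 counts (2038 and 2877 CPM). Its log2 ratio of 0.50, or 0.79 by library size alone, was below 2-fold. Tnr went from 11 to 109 counts (0.869 and 7.58 CPM, log2 ratio 2.92), and Hapln1 from 0 to 49 counts, which is at least 14.4-fold higher when the WT library is set to 3 counts. Of the other link protein genes, Hapln4 had 96 and 57 counts (-0.91), and Hapln2 and Hapln3 had at most 7.

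**Figure D5:**
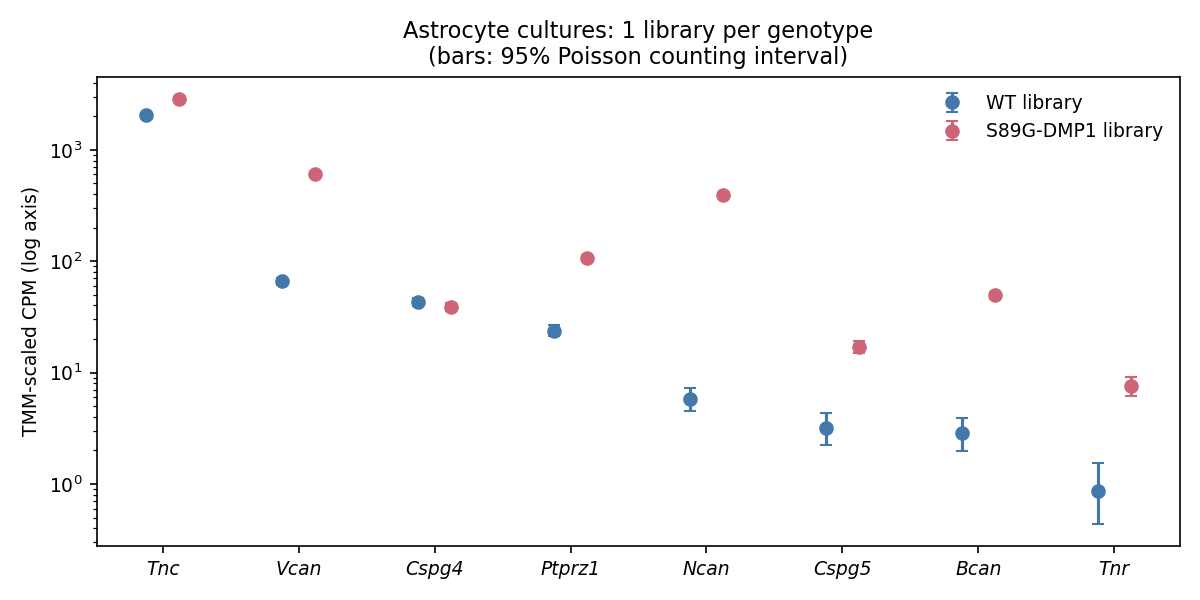
Expression of 8 members in the 2 astrocyte libraries, in TMM-scaled CPM on a log axis, ordered by the WT level. Blue points are the WT and red points the S89G-DMP1 library, 1 each, and bars are 95% Poisson counting intervals, hidden behind the points for abundant genes. Ncan stands at 5.77 and 392 CPM, whereas the points of Cspg4 (42.8 and 38.6 CPM) nearly coincide.

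Cell type markers differed between the astrocyte libraries along with the members. Of 9 astrocyte markers with enough counts 7 were at least 2-fold higher and 1 lower in the S89G-DMP1 library, with a median log2 ratio of 4.88, and Gjb6 had at most 1 count. All 8 progenitor markers counted were higher, 6 of them at least 2-fold, with sums of 876 and 2285 CPM. Of 6 fibroblast markers 5 were at least 2-fold lower and 0 higher, with Col1a1 at 2160 and 1565 CPM. Endothelial markers summed to 161 CPM in WT against 16.1 CPM in S89G-DMP1, with 1 higher and 3 lower of 4 counted. Cldn5 was at 0 in both libraries. Cdh5, with 1917 counts in WT and 23 in S89G-DMP1, made up most of the WT sum. Kdr, the higher marker, stood at 6.01 and 12.8 CPM (log2 ratio 1.07) and made up most of the S89G-DMP1 sum. Of 7 mural markers counted 5 were lower, 3 of them at least 2-fold, with a median log2 ratio of -0.81, and Kcnj8 was at 0 in both. The sum of the mural markers was 1949 CPM in the WT and 2732 CPM in the mutant library, within which Acta2 stood at 723 and 2471 CPM, whereas Pdgfrb stood at 930 and 158 CPM. Microglial markers gave 338 and 478 CPM, with 4 higher and 1 lower. Markers of oligodendrocyte precursors gave 145 and 259 CPM, with 5 higher and 2 lower. Among these, Pdgfra, also a fibroblast marker, stood at 139 and 6.95 CPM and Olig1 at 0.316 and 187 CPM. Oligodendrocyte markers gave 46.4 and 86.2 CPM, with 3 higher and 1 lower of 4 counted. Neuron markers gave 76.0 and 218 CPM, with 2 higher and 1 lower of 3 counted. Of these, Tubb3 stood at 67.2 and 19.5 CPM and Map2 at 8.30 and 193 CPM. The part of all these cell types in the levels of the members was not tested, and with 1 library per genotype the culture and the genotype cannot be told apart.

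The wider pathway groups went both ways in the astrocyte libraries. Of 21 chain-building genes counted, 2 were higher and 7 lower by at least 2-fold, with a median log2 ratio of -0.62. The largest ratios were those of Chst15 (-3.50), a sulfotransferase, Xylt1 (2.06) and Chst3 (2.05), another sulfotransferase. Of 12 CSPG-cutting enzymes and inhibitor 2 were at least 2-fold higher and 3 lower. The inhibitor Timp3 had 12144 CPM in the WT and 734 CPM in the mutant library (-4.05), Adamts20 had 0 and 47 counts, at least 13.8-fold higher, and Adamts9 had a log2 ratio of 3.41. Adamts4 (-0.11) and Adamts5 (-0.93) stayed below 2-fold.

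Of 14 receptors counted 5 were at least 2-fold higher and 0 lower, led by Itgb8 (4.80), Cntn1 (4.0) and Ptprf (3.0). Of 5 Ptprz1 ligands 3 were at least 2-fold higher, with Ptn at 53 and 3329 counts (5.74), Cntn1 and Nrcam (1.76), and 2 were lower. Among hyaluronan and link partners 2 of 8 were at least 2-fold higher and 2 lower, with Tnxb, tenascin-X of connective tissue, at 31753 and 86 counts (-8.68), Has2, a hyaluronan synthase, at -3.27, and Tnn at 0 and 25 counts, at least 7.33-fold higher. Of 14 other core proteins 5 were at least 2-fold higher and 7 lower, and the largest ratios were those of Thbd (-7.27), Bgn (-2.73) and Tmeff1 (-2.50).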

How the data were processed

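RNA sequencing tables of 8 samples were used. The authors deposited unnormalized read counts by gene, together with TPM values, for the NSCs, and the submitters' processing notes name HISAT2, StringTie, featureCounts and GRCm38. For astrocytes the authors deposited raw counts and FPKM values from reads without adapters or low-quality bases, aligned with TopHat2 2.0.9 and Bowtie2 2.0.6. The astrocyte genome build and the use of strand are not given in the sources used here.

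Symbols were paired with 47224 of 47729 NSC and 39973 of 40562 astrocyte identifiers through GENCODE M21. Genes of the NSC table passed filterByExpr and were compared, on TMM-scaled libraries, by the quasi-likelihood test of edgeR 4.0.16 (genotype as the only term, Benjamini-Hochberg adjustment over 11194 genes) in R 4.3.3. Shares and ratios within a library were compared by exact permutation tests in scipy 1.17.1. Astrocyte log2 ratios used a prior count of 2 and at least 10 counts in 1 or both libraries. Levels were divided by the summed length of a gene's annotated exons. Libraries of the same genotype differed beyond counting noise, with a chi-square per gene of 1.07 to 1.51, so none was counted as a repeat deposit. The steps were tested on simulated data.

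All 10 members are named, with list genes called in NSCs and the 3 largest astrocyte ratios of each list. The other genes of these lists, Dmp1 and the markers given by name serve to describe the cultures, and some were chosen after their values were seen. The members and lists were chosen with earlier results of these data known. Alternatives were DESeq2 1.42.0, limma 3.58.1 on log2 values of the authors' TPM, other scalings and filters, each library left out in turn, a replicate block, the authors' FPKM and shares without length.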

Additional observations from a re-analysis of the deposited data

Results flagged for a closer look

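Ncan, Vcan, Tnc and Tnr went in opposite directions in astrocyte and NSC cultures, and the difference was not tested, since astrocytes had 1 library per genotype and each table was scaled on its own. Ncan had a log2 ratio of 6.05 in astrocytes and -0.17 in NSCs. Vcan had 3.19 and -0.34, Tnr 2.92 and -0.42, and Tnc 0.50 and -0.64. In the WT astrocyte library 10 astrocyte markers summed to 117.7 CPM and in the S89G-DMP1 library to 1211 CPM, and their part in these ratios was not tested.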

How the results depend on the processing

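No value of a member that had passed a test or a 2-fold threshold changed direction under any alternative. Of 172 alternative values of the members' NSC fold changes and astrocyte ratios, 137 kept their NSC call or stayed within the astrocyte counting interval. DESeq2 called 348 higher and 503 lower genes in NSCs, against 792 and 981 by edgeR, and of the members it lost Tnr, and the cause was not tested. With limma on the authors' TPM, 38 higher and 107 lower genes were called with log2(TPM + 1) and 31 and 85 with log2(TPM + 0.1), and 0 members were called higher and 1 lower, Tnc (adjusted p = 0.0211 and 0.0228). In these TPM values some well counted genes are listed at 0, and the cause of the lower counts was not tested. Leaving out each NSC library in turn gave 571 to 733 higher and 770 to 926 lower genes, and 1 to 2 higher and 4 to 5 lower members, where Ncan and Bcan lost their calls in 2 of 6 fits each. The share of Ncan in the lectican level then differed by -6.02 to -5.33 percentage points, that of Bcan by 5.82 to 6.57 and that of Vcan by -0.73 to -0.46. As shares of reads, without length, the differences were -4.26 points for Ncan, 5.40 for Bcan and -1.16 for Vcan. The replicate numbers did not pair the NSC libraries (correlations of deviations of 0.028, -0.010 and -0.017), and a replicate block gave 829 higher and 1016 lower genes and the same 2 higher and 5 lower members. Requiring at least 10 counts in both astrocyte libraries left 1669 genes at least 2-fold higher, by construction of the filter, and log2(FPKM + 1) gave 1020 lower. With library size as the only scale, 3488 genes stood at least 2-fold higher and 1514 that much lower, against 2713 and 2010, and the sign of the Cspg4 ratio turned. Counting error limits Acan, Hapln1 and Dmp1 in NSCs, and no replicate error exists for astrocytes.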
